A study of Mus musculus with 8 samples.

Results

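Arg1 and Spp1 are 2 of the 100 genes measured by single-molecule fluorescence in situ hybridization in 8 sections of mouse hemispheres bearing GL261, a mouse glioma cell line. Their rows were taken by name from the called molecules. They were selected on their whole-section levels, because earlier results of these data showed opposite differences with anti-PD1 with and without CpG-STAT3ASO. Their treatment differences are therefore given as a description with no test, while comparisons within sections were tested. The groups were the combination of CpG-STAT3ASO with anti-PD1, CpG-STAT3ASO alone, anti-PD1 alone and PBS, with 2 sections each. Anti-PD1 is an antibody that blocks the T cell checkpoint receptor PD-1, and CpG-STAT3ASO joins a CpG oligonucleotide, a ligand of the innate receptor TLR9, to an antisense oligonucleotide against Stat3. All 4 groups carried GL261 tumours, were dosed intracranially 4 times and were taken on day 21. The labels give no strain or age and do not say how many animals were used, so sections may share an animal, and p-values measure only the spread between these sections.

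Arg1 encodes arginase 1, the enzyme that splits arginine into ornithine and urea. Myeloid cells that express it deplete local arginine, which restrains T cells, and in mice it is widely used as a marker of repair-type or suppressive macrophages. Spp1 encodes osteopontin, a secreted adhesive phosphoprotein that binds integrins and CD44 and is made by activated macrophages and microglia, among other cells. On the GRCm38.p6 assembly Arg1 lies on chromosome 10 at 24915207 to 24927470 and Spp1 on chromosome 5 at 104435111 to 104441053. Where the probes bind within the transcripts is not stated in the labels.

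A section held 1664837 to 6987530 molecules of named genes. Levels are given as CPM, the molecules of a gene per 1000000 molecules of named genes in the same area. Codes named FP, read here as false-positive codes, made up 0.106 to 0.306% of the molecules. The code FP 13 alone had 3316 to 5348 molecules per section, more than Arg1 in 5 of 8 sections, the exceptions being combination 2, PBS 1 and PBS 2. The next code had 191 to 657 molecules, below Arg1 in each section. Spp1 exceeded FP 13 in all 8 sections. The macrophage and monocyte list, with 7 of its 11 genes on the panel, summed to 84103 and 62821 CPM with the combination and 94736 and 52693 CPM with CpG-STAT3ASO, against 17357 and 14626 CPM with anti-PD1 and 23109 and 12204 CPM with PBS. Csf1r, also a listed microglia gene, was its largest part, at 31141 to 57210 CPM with CpG-STAT3ASO and 7535 to 13257 CPM without. The microglia list, Tmem119 and Csf1r on this panel, summed to 36715 to 69782 CPM with CpG-STAT3ASO and 17591 to 27906 CPM without. The sum thus does not separate macrophages from microglia. Of the neutrophil list only Ly6g is on the panel, at 7.39 to 23.4 CPM, and no listed marker of neurons, oligodendrocytes, astrocytes, endothelial cells or fibroblasts is on it.

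Arg1 was low with either agent alone and high with both agents or neither. Its level was 1351 and 2326 CPM in the combination sections (2250 and 9125 molecules). It was 740 and 321 CPM with CpG-STAT3ASO alone (1232 and 780 molecules), 502 and 444 CPM with anti-PD1 alone (3338 and 2823 molecules), and 1219 and 1547 CPM with PBS (5108 and 10812 molecules). The order of the group means was combination (1839 ± 689 CPM), PBS (1383 ± 232 CPM), CpG-STAT3ASO (531 ± 296 CPM) and anti-PD1 (473 ± 41.4 CPM; SD, n = 2 each). The combination and PBS sections overlapped, as did those with either agent alone, and there was no overlap between these 2 pairs of groups.

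**Figure D1:**
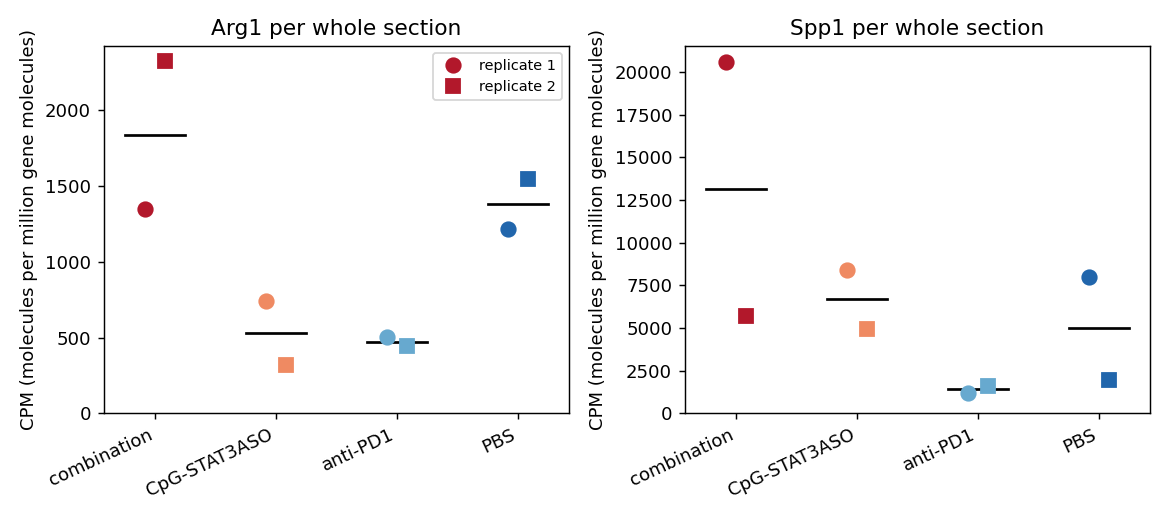
Level of Arg1 (left) and Spp1 (right) in each whole section, in CPM on a linear axis from 0, by treatment. Circles are replicate 1, squares replicate 2, and the line is the mean of the 2 sections; Arg1 was at 1219 CPM or more with the combination and with PBS and at 740 CPM or less with either agent alone.

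Without CpG-STAT3ASO, Arg1 differed by -1.54 on the log2 scale with anti-PD1 against PBS, while the median over all 100 genes differed by 0.05. Limma called 1% of the genes in that comparison. With CpG-STAT3ASO present, Arg1 was 1.86 higher with the combination than with CpG-STAT3ASO alone, where the median gene differed by -0.08. In that comparison 0% of the genes were called, with 2 at an unadjusted p under 0.05, and voom also called 0. The difference between these differences, the interaction of the 2 agents, was 3.40 for Arg1 and -0.12 for the median gene. The interaction was called for 0% of the genes by limma and for 0 by voom, with 3 at an unadjusted p under 0.05 in each. In the other direction of the design, Arg1 was 1.91 higher with the combination than with anti-PD1 (28% of the genes called, median gene 0.58) and differed by -1.49 with CpG-STAT3ASO against PBS (25% called, median gene 0.63). These comparisons share sections, so their values are not independent of each other. In whole sections, fewer cells of a type and less RNA per cell cannot be told apart.

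Spp1 was lowest with anti-PD1 alone, and its 2 sections lay far apart with the combination and with PBS. Its level was 20546 and 5705 CPM with the combination, 8395 and 4947 CPM with CpG-STAT3ASO alone, 1174 and 1629 CPM with anti-PD1 alone and 8013 and 1984 CPM with PBS. The combination overlapped with CpG-STAT3ASO, and CpG-STAT3ASO overlapped with PBS, whereas both anti-PD1 sections lay below both PBS sections. Spp1 differed by -1.53 with anti-PD1 against PBS, and by -0.52 without PBS 1. It was 0.75 higher with the combination than with CpG-STAT3ASO, and without combination 1 this became -0.18. Spp1 was 2.97 higher with the combination than with anti-PD1, and its interaction value was 2.28. The 2 genes thus shared the lower level under anti-PD1 alone, but CpG-STAT3ASO alone went with less Arg1 and, at 0.69 against PBS, with about the gain in Spp1 of the median gene (0.63). The summed macrophage and monocyte list was higher in all 4 sections given CpG-STAT3ASO, as were Csf1r, Cd68 and Adgre1. Cd14, Ccr2, Mrc1 and Msr1 were not higher in all 4, with Mrc1 at 324 CPM in CpG-STAT3ASO 2 and 506 CPM in PBS 2. Whether these markers have a part in the Spp1 levels was not tested.

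Over the 8 sections, the genes whose log2 CPM followed Arg1 best were Nos2, the inducible nitric oxide synthase (Pearson r 0.64), Irf8, a myeloid transcription factor (0.59), Prf1, which encodes perforin (0.58), Msr1, a scavenger receptor (0.54), and Pdcd1lg2, which encodes the PD-1 ligand PD-L2 (0.54). Spp1 ranked 11th at 0.39. Il2ra, which encodes the IL-2 receptor alpha chain, ran against Arg1 (-0.60). Spp1 followed Lag3, a checkpoint receptor gene, at 0.94, Ikzf2 at 0.89, Tgfb1 at 0.87, Cd68, a lysosomal macrophage gene, at 0.86 and Icosl at 0.85. Spp1 ran most strongly against Itgax, the integrin gene for CD11c (-0.89), and Cd74 (-0.80). These correlations are descriptions over 8 sections that share treatments and the scaling to total molecules. Without CpG-STAT3ASO, Lag3 (-3.17), Ikzf2 (-1.53) and Cd68 (-1.47) were lower in tissue dense in Mki67 and Birc5, as classed below. Tgfb1 (0.63) was higher there. Whether the share of such tissue in a section has a part in the correlations was not tested.

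Both genes were mapped over square bins of 360 pixels (the pixel size is not given), keeping bins with at least 20 molecules as tissue. Arg1 was unevenly spread. In the fullest 5% of tissue bins lay 77.8 and 71.8% of Arg1 molecules with the combination, 64.9 and 55.1% with CpG-STAT3ASO, 46.3 and 47.6% with anti-PD1 and 52.0 and 39.7% with PBS. The median gene had 34.6 to 50.9% there. A sparse gene fills few bins by count alone, so the squared coefficient of variation beyond Poisson noise is given as well. For Arg1 this was 28.1 and 20.7 with the combination, 11.6 and 14.6 with CpG-STAT3ASO, 4.94 and 6.94 with anti-PD1 and 6.79 and 3.78 with PBS. Arg1 was thus most focal in both combination sections by either measure, ranking 12th and 8th among the 100 genes in variation beyond Poisson. Over all 8 sections its median rank was 30 in variation beyond Poisson and 39.5 in the share held by the fullest 5% of bins. The fullest Arg1 bin held 309 molecules, in combination 2, and the fullest of combination 1 held 96, against 41 and 47 with CpG-STAT3ASO.

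Spp1 was focal in every group. Its fullest 5% of bins held 70.5 and 57.0% of its molecules with the combination, 62.3 and 69.5% with CpG-STAT3ASO, 49.9 and 49.1% with anti-PD1 and 66.8 and 47.3% with PBS. Its variation beyond Poisson was 16.8 and 7.86 with the combination, 14.9 and 15.005 with CpG-STAT3ASO, 10.4 and 9.01 with anti-PD1 and 14.8 and 7.64 with PBS, so the groups overlapped. The top FP code was spread more evenly than both genes, with 20.2 to 36.6% of its molecules in its fullest 5% of bins. The fullest Spp1 bins held 1161 molecules in combination 1 and 944 in PBS 1, the sections with the highest Spp1 of their groups.

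**Figure D2:**
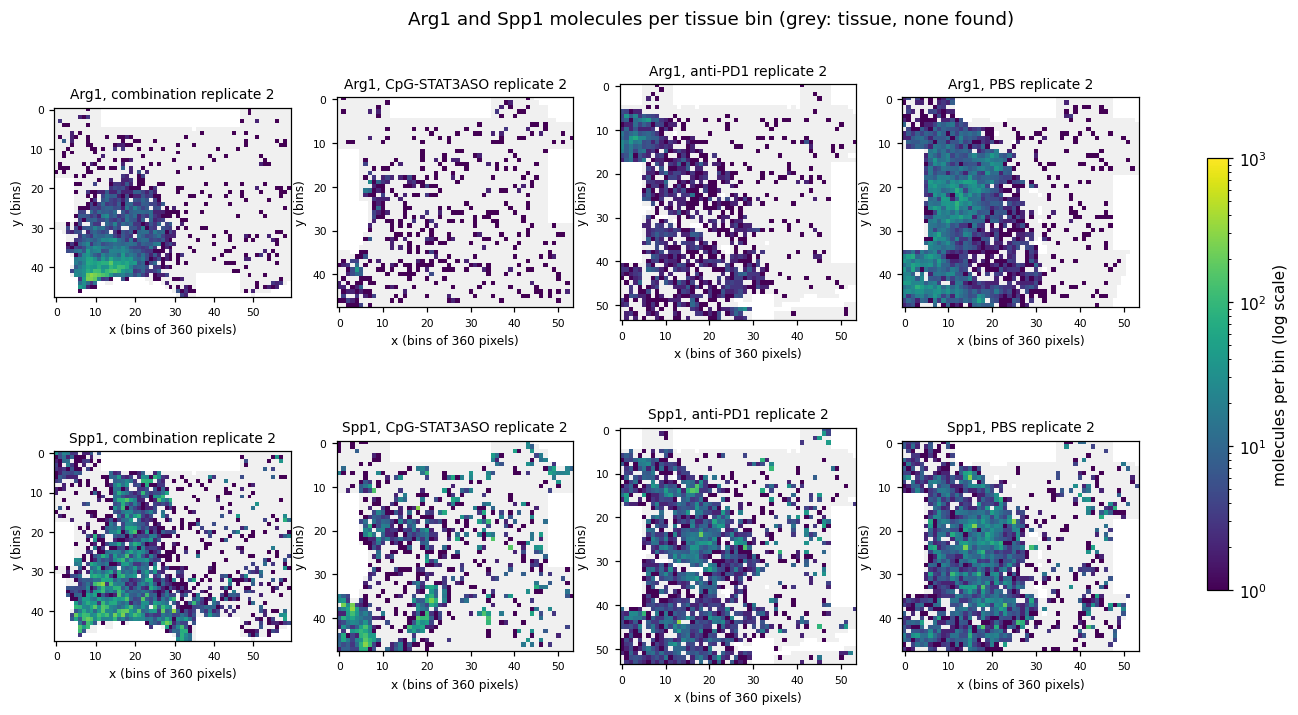
Molecules of Arg1 (upper row) and Spp1 (lower row) per 360-pixel tissue bin in replicate 2 of each treatment, on a log colour scale, with grey for tissue bins without a molecule of the gene. Arg1 formed 1 compact area in the combination section, few scattered bins with CpG-STAT3ASO, and a broad area over the left of the sections with anti-PD1 and PBS; Spp1 was scattered over more of each section.

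At a smaller scale, molecules of a gene were linked where they lay within 20 pixels of each other, and groups of at least 5 were counted. Arg1 formed 52 and 255 such groups with the combination, holding 23.8 and 36.1% of its molecules. There were 16 and 7 groups with CpG-STAT3ASO (9.82 and 6.79% of molecules), 20 and 11 with anti-PD1 (5.42 and 2.37%) and 101 and 175 with PBS (17.4 and 12.9%). The largest Arg1 group held 244 molecules, in combination 2, and 67 in combination 1, against 14 and 21 with CpG-STAT3ASO. Spp1 formed 755 and 634 groups with the combination, 407 and 377 with CpG-STAT3ASO, 121 and 220 with anti-PD1 and 870 and 321 with PBS. A larger share of Spp1 than of Arg1 molecules lay in such groups in every section, from 30.9% in anti-PD1 1 to 82.4% in combination 1. Cell outlines were not used here, and denser molecules link more readily, so a group is not a cell.

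Bins were classed by Mki67 plus Birc5, 2 genes of dividing cells, as low-proliferation (under 10 molecules), intermediate (10 to 99) or dense (100 or more). In the sections without CpG-STAT3ASO, 84.4 to 93.2% of Arg1 molecules lay in dense bins. With CpG-STAT3ASO, alone or combined, dense bins were few, at 22 to 78 per section, and held 2.13 to 6.34% of Arg1. There, intermediate bins held 59.7 and 78.9% of Arg1 with the combination and 45.9 and 52.2% with CpG-STAT3ASO alone. For Spp1, intermediate bins held 51.4 and 66.7% with the combination and 44.5 and 56.7% with CpG-STAT3ASO alone. In low-proliferation bins Arg1 had 0.106 to 1.12 molecules per bin, below the 1.55 to 2.56 per bin of FP 13 in the same section, so levels of Arg1 there lie within reach of the false-positive codes. Arg1 had a higher CPM in dense bins than in low-proliferation ones in all 8 sections, and FP 13 had a lower CPM in dense bins in each of them.

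**Figure D3:**
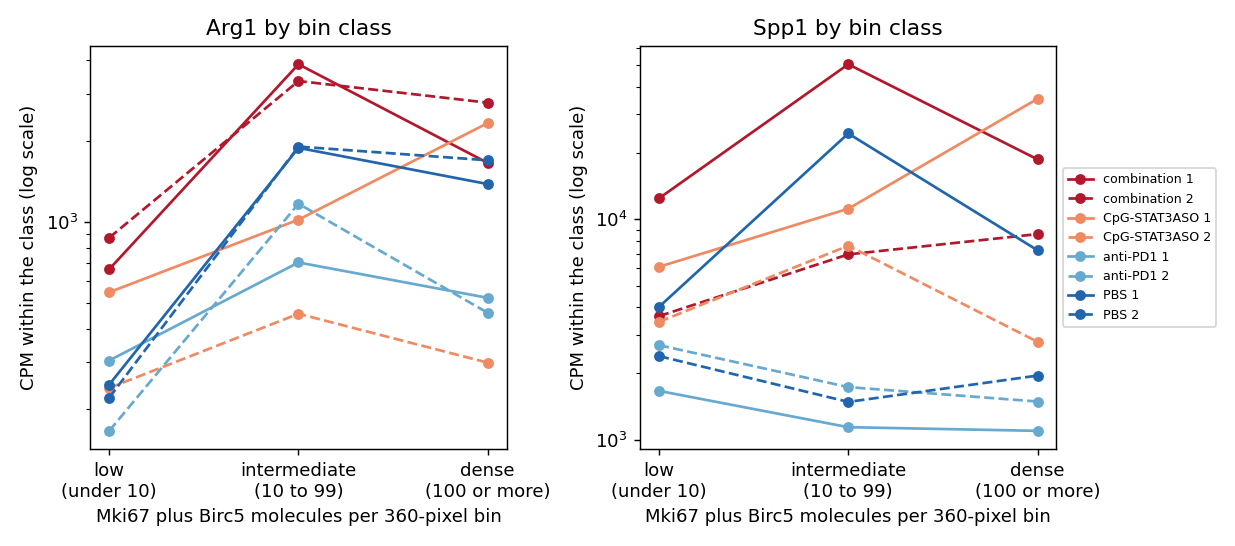
CPM of Arg1 (left) and Spp1 (right) within low-proliferation, intermediate and dense bins on a log axis, with 1 line per section (solid for replicate 1, dashed for replicate 2) coloured by treatment. Arg1 was lowest in low-proliferation bins in every section; Spp1 had no common order across the sections.

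In tumour tissue without CpG-STAT3ASO, Arg1 was enriched in dense bins and Spp1 was not called. Arg1 had 521 and 458 CPM in dense bins with anti-PD1, against 304 and 167 CPM in low-proliferation bins. With PBS it had 1382 and 1695 CPM in dense bins and 248 and 221 CPM in low-proliferation bins. Dense bins were higher in 4 of 4 sections, by 1.91 on the log2 scale (SE 0.41, limma adjusted p = 0.00984). Limma called 57.1% of the 98 genes tested, 26.5% as higher and 30.6% as lower, and Arg1 ranked 12th among the higher ones. Intermediate bins, at 706 and 1167 CPM with anti-PD1 and 1885 and 1906 CPM with PBS, lay above dense bins in 4 of 4 sections, which was not tested. Without PBS 1 the difference between dense and low-proliferation bins was 1.72 and was no longer called (adjusted p = 0.0618). Spp1 had 1098 and 1492 CPM in dense and 1668 and 2689 CPM in low-proliferation bins with anti-PD1, and with PBS 7247 and 1957 CPM in dense and 4012 and 2399 CPM in low-proliferation bins. Its mean difference was -0.22 (SE 0.32, adjusted p = 0.634), with PBS 1 as the 1 section of 4 that was higher. Counted as molecules per bin, Spp1 was 2.76 higher in dense bins. Dense bins held more molecules of all genes, a median of 4168 to 7044 per bin against 606.5 to 723 in low-proliferation bins.

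Under CpG-STAT3ASO, alone or combined, both genes were enriched in intermediate against low-proliferation bins. The few dense bins were not part of this test. Only in CpG-STAT3ASO 2 was Spp1 lower in dense bins, at 2785 CPM, than in low-proliferation bins, at 3431 CPM. Arg1 had 3860 and 3343 CPM in intermediate bins with the combination, against 666 and 873 CPM in low-proliferation bins. With CpG-STAT3ASO alone it had 1018 and 454 CPM in intermediate bins, against 547 and 240 CPM in low-proliferation bins. The difference was 1.57 (SE 0.28, limma adjusted p = 0.00120, higher in 4 of 4 sections), second after Rrm2, a nucleotide synthesis gene of dividing cells (2.65). Spp1 had 50591 and 6942 CPM in intermediate and 12472 and 3642 CPM in low-proliferation bins with the combination. It had 11186 and 7599 CPM in intermediate and 6097 and 3431 CPM in low-proliferation bins with CpG-STAT3ASO alone. Its difference was 1.24 (SE 0.19, adjusted p = 0.00065, higher in 4 of 4 sections). In this comparison 56.1% of the 98 genes were called, 42.9% as higher and 13.3% as lower, and the median gene was 0.52 higher.

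How the Arg1 differences between treatments were spread over the bin classes is given as a description. With anti-PD1 against PBS, Arg1 differed by -1.65 in dense bins, -1.06 in intermediate bins and -0.06 in low-proliferation bins. For the combination against CpG-STAT3ASO it differed by 1.36 in dense, 2.40 in intermediate and 1.07 in low-proliferation bins. For CpG-STAT3ASO against PBS it differed by -0.87 in dense and -1.48 in intermediate bins but by 0.63 in low-proliferation bins, and for the combination against anti-PD1 by 2.13, 1.98 and 1.75 in the same order. The interaction value was 3.005 in dense, 3.46 in intermediate and 1.13 in low-proliferation bins for Arg1, and 1.91, 3.12 and 1.11 for Spp1 in the same order. The dense values with CpG-STAT3ASO rest on the few dense bins named above.

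Without CpG-STAT3ASO, Arg1 was highest around the edge of the dense area. Within 1 to 3 bins outside the edge its level was 751 and 674 CPM with anti-PD1 and 1478 and 1765 CPM with PBS. Within 1 to 3 bins inside it was 582 and 504 CPM with anti-PD1 and 1422 and 1749 CPM with PBS. At 4 or more bins inside it was 285 and 287 CPM with anti-PD1 and 793 and 1168 CPM with PBS, lower than at the edge in 4 of 4 sections. From 4 bins outwards it was 129 to 224 CPM, close in both groups. The core held few bins, 36 to 194 per section. Spp1 showed such a shape only in PBS 1, where it reached 19550 CPM within 1 to 3 bins outside, against 935 CPM in the core. In PBS 2 it had 1815 and 1820 CPM in these zones. Spp1 was highest at 10 or more bins outside in the other 3 sections, at 2741 and 3644 CPM with anti-PD1 and 2675 CPM in PBS 2.

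**Figure D4:**
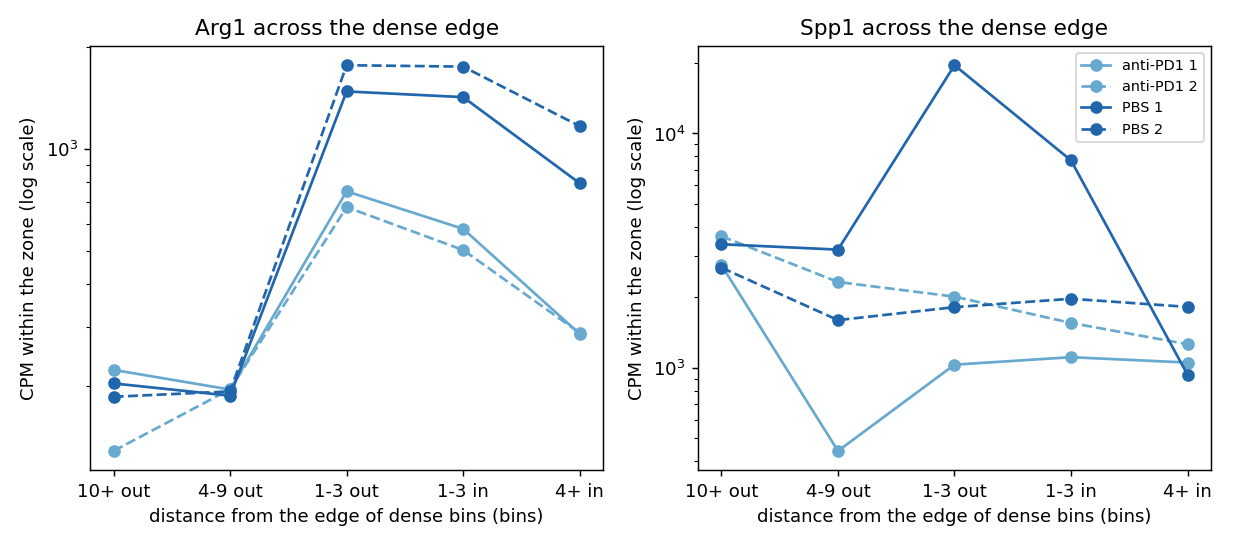
CPM of Arg1 (left) and Spp1 (right) by distance from the edge of dense bins, in bins of 360 pixels from far outside to the core, on a log axis, for the 4 sections without CpG-STAT3ASO. Arg1 was at 129 to 224 CPM from 4 bins outwards in each section, peaked at 1 to 3 bins on either side of the edge and was lower in the core.

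Among the lists that hold Arg1 and Spp1, 12 of 21 suppressive and repair-type myeloid genes are on the panel. In dense against low-proliferation bins without CpG-STAT3ASO, 7 of the 12, Arg1 among them, were higher, 2 were lower and 3 did not pass, against 26.5% of all genes higher and 30.6% lower. The list's median was 0.82, against 0.08 over all genes. Gpnmb, a glycoprotein gene of lipid-laden macrophages that melanoma and glioma cells also express, was 5.87 higher, Msr1 2.56 higher and Tgfbi, a TGF-beta-induced matrix gene, 2.35 higher. Of the 7 macrophage and monocyte markers on the panel, 2 were higher (Msr1 and Cd14) and 3 lower (Csf1r -2.60, Adgre1 -1.63 and Cd68 -1.47), with a median of 0.09. Fabp5, a fatty acid binding protein gene, was lower (-3.78), as was Vegfa, the angiogenic growth factor gene (-0.96). In intermediate against low-proliferation bins with CpG-STAT3ASO, 9 of the 12, Arg1 and Spp1 among them, were higher, 1 (Vegfa) was lower and 2 did not pass, against 42.9% of all genes higher and 13.3% lower. The list's median was 1.04, against 0.52 over all genes. Mrc1, the mannose receptor gene, passed in neither comparison (0.09 and 0.41). Of the known regulators of Arg1, 6 of 12 are on the panel. In dense bins Il10 (1.503), Tgfb1 (0.63) and Stat3 (0.46) were higher and Il6 (-1.42) was lower, while in intermediate bins Il10 (1.43), Csf2rb (1.02) and Tgfb1 (0.79) were higher. That is 3 of 6 higher in each comparison, against 26.5% of all genes in dense and 42.9% in intermediate bins. Il10 and Il6 were sparse, at 42.6 to 108 and 18.9 to 35.1 CPM in whole sections without CpG-STAT3ASO. FP 13 had 166 to 529 CPM in the dense bins there, so both lie within reach of the false-positive codes. With CpG-STAT3ASO Il10 had 50.4 to 83.9 CPM in whole sections, against 623 to 1923 CPM of FP 13 in intermediate bins. Itgax was the 1 osteopontin receptor gene of 9 on the panel, and it was higher in dense bins (1.996) and in intermediate bins (0.57).

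Bins with 20 or more Arg1 molecules numbered 24 and 96 with the combination, 3 and 2 with CpG-STAT3ASO, 18 and 15 with anti-PD1 and 52 and 173 with PBS. They held 49.5 and 67.2% of Arg1 with the combination, 6.99 and 9.36% with CpG-STAT3ASO, 14.7 and 16.9% with anti-PD1 and 34.5 and 53.2% with PBS. Just above that limit, 0 to 60 bins per section held 20 to 24 molecules, and just below it 1 to 62 held 15 to 19. Without CpG-STAT3ASO most of these Arg1-rich bins were dense, at 16 of 18 and 13 of 15 with anti-PD1 and 49 of 52 and 168 of 173 with PBS. With the combination 20 of 24 and 76 of 96 were intermediate.

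What accompanied Arg1 differed between these sections. With the combination, Arg1-rich bins held 230030 and 22368 CPM of Spp1, against 15127 and 4506 CPM in the other tissue bins. With anti-PD1 they held 701 and 1484 CPM of Spp1, against 1182 and 1632 CPM in other bins, and with PBS 3284 and 2218 CPM against 8342 and 1941 CPM. Spp1 was thus 3.93 and 2.31 higher in the Arg1-rich bins of the combination sections and differed by -1.34 to 0.19 in the 4 sections without CpG-STAT3ASO. In the 3 and 2 Arg1-rich bins of the CpG-STAT3ASO sections, Spp1 stood at 74968 and 25838 CPM, against 8197 and 4909 CPM elsewhere. Over the 6 sections with at least 5 such bins the mean Spp1 difference was 0.70 (SE 0.60, limma adjusted p = 0.518), and the difference between the groups of sections was not tested.

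**Figure D5:**
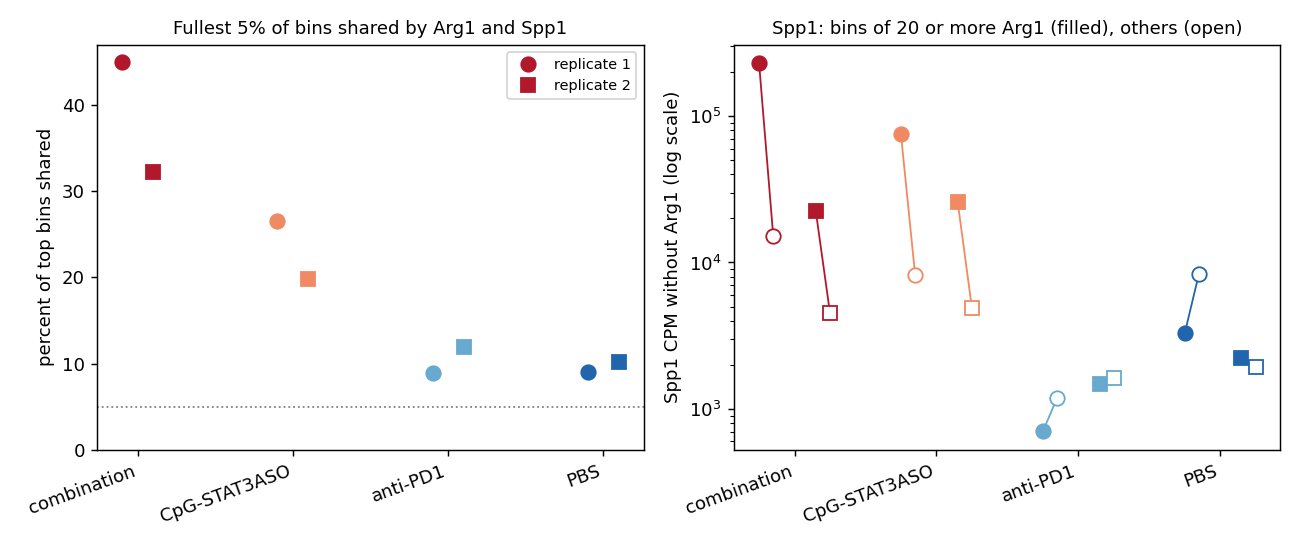
Left, percent of the 5% of tissue bins fullest in Arg1 that were also among the 5% fullest in Spp1, per section by treatment, with a dotted line at the 5% of unrelated bins. Right, Spp1 CPM (Arg1 left out of the totals, log axis) in bins of 20 or more Arg1 molecules (filled) and in other tissue bins (open) of the same section; filled symbols lay above open ones in PBS 2 and in the 4 sections that received CpG-STAT3ASO.

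Several other genes of the Arg1-rich bins, named after their values were seen, differed more with the combination than without CpG-STAT3ASO. In both combination sections Msr1 (3.54 and 1.96), Cd14, a lipopolysaccharide co-receptor gene (2.20 and 2.70), Il10 (2.79 and 2.05), Tgfbi (2.72 and 1.86), Il1b (2.67 and 1.88) and Tnf (2.51 and 1.68) were higher in them. In the 4 sections without CpG-STAT3ASO the mean difference of Cd14 was 0.00, of Il1b 0.07, of Tnf -0.26 and of Msr1 0.16. There Tgfbi had 0.38 and Il10 0.55, while Pdcd1lg2 had 1.21 and Mrc1 0.72. Tgfbi was higher in 6 of 6 sections, and Il10 was 2.03 higher in anti-PD1 2. Il10 was sparse, at 50.4 and 83.9 CPM in the whole combination sections and 42.6 CPM in anti-PD1 2. Its values in Arg1-rich bins thus rest on few molecules. In the test over 6 sections 9.09% of 99 genes were called, and all 9 were lower in Arg1-rich bins (Tox, Flt3, Cd4, S1pr1, Il12a, Sirpa, Lag3, Dnmt3a and Scarb1). Among the other suppressive and repair-type genes, 0 of 11 passed. At an unadjusted p under 0.05 there were 23 genes. With comparison bins matched for depth limma called 0 genes (14 at an unadjusted p under 0.05), and with bins matched for class also 0 (19 at an unadjusted p under 0.05). Arg1-rich bins had a median of 1724 to 7111 molecules and other bins 726 to 1504 over these 6 sections.

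The fullest bins of the 2 genes coincided most with the combination. Of the bins in the top 5% for Arg1, 45.0 and 32.2% were also in the top 5% for Spp1 with the combination, 26.5 and 19.8% with CpG-STAT3ASO, 8.93 and 11.9% with anti-PD1 and 9.01 and 10.2% with PBS, where unrelated bins would share about 5%. All 4 sections with CpG-STAT3ASO lay above the other 4. This is a description, since bins share depth, and bins of the 2 kinds of section lie in different classes. Most of the Arg1 top bins were dense without CpG-STAT3ASO (91.5 to 99.1%), against 2.75 to 7.69% with it.

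The surroundings of single Arg1 molecules were compared with tissue farther away. The density of each gene within 100 pixels of Arg1 molecules was set against a ring at 400 to 600 pixels, with 1 value per section. Limma called 77.8% of the 99 genes as higher near Arg1, with a median of 0.34 on the log2 scale, so a call by itself says little about a gene. Mrc1 (0.92), Msr1 (0.88), Csf2rb, the common beta chain of the GM-CSF receptor (0.75), Tgfbi (0.72), Cd68 (0.65) and Csf1r, the CSF-1 receptor gene (0.64), had the highest values among those called in the same direction in 8 of 8 sections. All 7 macrophage and monocyte markers on the panel were called higher, with a median of 0.64. Spp1 was 0.63 and 0.39 higher near Arg1 with the combination, 1.68 and 0.82 with CpG-STAT3ASO, 0.10 and 0.60 with anti-PD1 and 0.29 and 0.24 with PBS. Its mean was 0.59 (SE 0.16, adjusted p = 0.00721, higher in 8 of 8 sections). Ly6g, the neutrophil marker, was not called (0.21, adjusted p = 0.389).

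When each gene was taken as a share of all molecules near Arg1, a measure added after the data were seen, 4.04% of the genes were called higher and 2.02% lower. The higher ones were Msr1 (0.45, SE 0.08, limma adjusted p = 0.0211), Csf2rb (0.32, adjusted p = 0.0252), Tgfbi (0.29, adjusted p = 0.0322) and Cd68 (0.22, adjusted p = 0.0308), each in 8 of 8 sections. S1pr1 (-0.31) and Cxcl10, an interferon-induced chemokine gene (-0.23), were lower in 8 of 8 sections. S1pr1 averaged 14027 CPM, against 92.5 CPM for the T cell gene Cd3d, so it is not read here as a lymphocyte gene. It differed by -5.05 in dense against low-proliferation bins without CpG-STAT3ASO. Mrc1 (0.49, adjusted p = 0.104) and Spp1 (0.16, SE 0.12, adjusted p = 0.318, higher in 4 of 8 sections) were not called.

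The same measures around Spp1 molecules were added after the data were seen. By density 80.8% of 99 genes were called higher, with a median of 0.45. By share 1.01% were called higher, which was Flt3, a cytokine receptor gene of dendritic cell progenitors, at 1.33 (SE 0.13, limma adjusted p = 0.000284) and higher in 8 of 8 sections. Its values by share were 1.63 and 1.14 with the combination, 0.74 and 1.48 with CpG-STAT3ASO, 1.73 and 0.76 with anti-PD1 and 1.40 and 1.78 with PBS, so the groups overlapped. The next gene was Mrc1 at 0.63 (adjusted p = 0.130). The other dendritic cell genes on the panel were not called by share (Itgax 0.48, Ccr7 0.13, Irf8 0.03, Xcr1 -0.03 and Batf3 -0.04). Against low-proliferation bins, Flt3 differed by -4.54 in dense bins without CpG-STAT3ASO and by -1.83 in intermediate bins with it. Arg1 had 0.15 by share (adjusted p = 0.480, higher in 5 of 8 sections).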

How the data were processed

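Each deposited file lists the called molecules of 1 section with x, y and z positions (unit: other, in pixels and planes) and a target name, per the labels from Resolve single-molecule hybridization. How spots were called is not stated in the labels. Seurat 4.2.0 is named in the submitters' processing notes, without a role. Positions of the genes come from RefSeq.

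Molecules were tallied per target, section and 360-pixel bin, with the 28 FP codes left out of gene totals. Values were log2 of CPM plus 1, for genes averaging 10 molecules or more per section. Tests used limma 3.58.1 in R 4.3.3 (lmFit and eBayes), with Benjamini-Hochberg adjustment over all genes tested, a threshold of 0.05 and two-sided p-values. Comparisons of bins used a trend in eBayes and the section as block, and whole-section fits on log2 CPM used a trend. Tests of surroundings used no trend and set the mean of 1 value per section against 0. Mki67 and Birc5 were left out of tests between bin classes, and the anchor gene out of tests of its bins or surroundings. Densities had 0.5 added. The fits were tested on simulated data. The members and lists were chosen with earlier results of these data known. Named genes were the members, per test the 10 called genes in each direction that changed most and had the same sign in every section, the 5 most and 2 least alike genes, and measured list members; any other was chosen after its values were seen. Some genes taken by this rule are not reported here. Alternatives covered scaling, pseudocount, filters, voom, replicate block, bin side, class limits, radius and leaving out each section. Same-numbered sections of different treatments correlated from -0.53 to 0.59 in their deviations, so the numbers do not pair them.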

Additional observations from a re-analysis of the deposited data

Results flagged for a closer look

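The density of Spp1 around Arg1 molecules was 1.68 on the log2 scale in CpG-STAT3ASO 1, far from the next of the 8 sections (0.82). This section had 1232 Arg1 molecules. About 1 in 20 such groups of sections is flagged by chance.

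The anti-PD1 difference of Arg1 ran in opposite directions with and without CpG-STAT3ASO. Both combination sections lay above both CpG-STAT3ASO sections, and both anti-PD1 sections lay below both PBS sections, with an interaction of 3.40 on the log2 scale. Arg1 was chosen for this pattern, so no test of it is given as support. In the fit over all 100 genes the interaction was called for 0 genes by limma and by voom, with 3 at an unadjusted p under 0.05 in each.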

How the results depend on the processing

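With the replicate number as a block, the whole-section differences cannot move, since each group holds both numbers (Arg1 -1.54 for anti-PD1 against PBS, 1.86 for the combination against CpG-STAT3ASO and 3.40 for the interaction; Spp1 -1.53, 0.75 and 2.28), with 0 genes called for the interaction. In low-proliferation bins alone the Arg1 values were -0.056, 1.07 and 1.13 and the Spp1 interaction was 1.11. In intermediate bins alone Arg1 was 2.40 higher with the combination than with CpG-STAT3ASO. Leaving out each section in turn gave Arg1 1.26 to 2.46 for the combination against CpG-STAT3ASO, 2.80 to 3.998 for the interaction, and -1.71 to -1.37 for anti-PD1 against PBS. Spp1 ranged from -0.18 to 1.67 for the combination against CpG-STAT3ASO, reversed without combination 1, and 0 to 2 genes were called for the interaction. In dense against low-proliferation bins, 92 genes were called as molecules per bin. Spp1 was reversed as molecules per bin (2.76) and over all 8 sections (0.40). Arg1 ranged from 1.57 to 2.29 without each section, and its call was lost without PBS 1. Arg1-rich bins gave 20 called genes at 10 or more molecules, 21 with bins of 180 pixels, 0 with depth-matched and 0 with class-matched bins, and 62 as molecules per bin, where Spp1 was called (1.80). Without CpG-STAT3ASO Spp1 was reversed (-0.51). As a share of molecules, 6 genes were called around Arg1, with Spp1 at 0.16, and 1 around Spp1, against 47 by density around Spp1 in sections without CpG-STAT3ASO. The mean share in the fullest bins was 56.9% for Arg1 and 59.1% for Spp1. Bins of 180 pixels gave 69.8 and 72.8%, bins of 720 pixels 48.9 and 46.8%, and the fullest 1% of bins 27.2 and 27.0%. The cause of these changes was not tested. With 2 sections per treatment and Arg1 below FP 13 in low-proliferation bins, small differences there were not detectable.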
